A study of Mus musculus with 18 samples.

Results

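The ARMCX genes are a family of X-linked genes, Armcx1 to Armcx6, whose proteins carry armadillo repeats and in several cases sit on the outer membrane of mitochondria. They were followed here across mouse neurospheres (neural stem and progenitor cells that grow in culture as floating balls) and the cultures they gave at day 4 of differentiation. A gene was measured by the probe set that listed its symbol alone, and where there were several, by the probe set with the highest mean over all 18 arrays. By this rule 5 of the 6 members were measured, out of 22180 genes on the array. Armcx5 had no probe set of its own, because the probe set that lists it also lists Gprasp1, and it was not analysed here. Each of the 5 measured members had 1 probe set, and all 5 were among the 19016 genes kept after a filter on low values. The family was chosen by the values of Armcx1, which were lower in Pcdh19 knockout than in wild type cultures on both days, so that comparison is given as a description and not as a test.

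The 18 samples fell into 6 groups of 3 arrays. These were Pcdh19 knockout (KO) cultures, mosaic cultures that mixed knockout and wild type cells, and wild type (WT) cultures, each measured at day 4 and at day 0. Pcdh19 encodes a protocadherin, which joins neighbouring cells, and the study asked how its loss, complete or in a mixture of cells, bears on neural differentiation. Neurosphere culture followed a cited protocol that was not used here. The part of the gene that was deleted, the strain, the age of the animals and the share of knockout cells in each mosaic were not given in the sources used here. The design calls the replicates technical, so the p-values measure only the spread between these samples. All cultures carry the label female, yet on all 18 arrays the Y-linked genes Eif2s3y, Kdm5d and Uty had log2 values of 6.85 to 9.04, while Xist, which silences an X chromosome in female cells, had 2.68 to 3.98 and did not pass the filter on low values. The 25th percentile of an array lay at 3.57 to 3.67 and its median at 4.85 to 4.99, so the arrays go against the label in every group alike.

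In the mouse, Armcx1 raises the movement of mitochondria along axons, and Armcx3, also called Alex3, binds the Miro and Trak2 proteins that tie mitochondria to kinesin motors. Armc10, an autosomal relative, is regarded as the gene from which the X-linked family arose. The ARMCX genes lie on the X chromosome in a cluster that also holds the related GASP genes and the BEX and TCEAL genes, and Pcdh19 is on the same chromosome. Proteins of the family resemble each other, and whether a probe set also bound RNA of another member was not tested.

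The start regions of some members share a short motif, which is shown here because the members with a window differ in whether they hold it. The RefSeq promoter table of mouse build GRCm38.p6 gives 250 bases before to 50 bases after a gene's start, and it held windows for Armcx1, Armcx2, Armcx4, Armcx5 and Armcx6. The E-box CACGTG, which reads the same on both strands, was present in 3 of these 5 windows. The stretch around it, 24 bases before to 14 bases after the motif, is printed here 5′ to 3′ with the E-box in capitals. Armcx1 is at chrX:134717911-134717954 on the plus strand, Armcx6 at chrX:134751426-134751469 on the minus strand and Armcx4 at chrX:134686492-134686535 on the plus strand.
Armcx1: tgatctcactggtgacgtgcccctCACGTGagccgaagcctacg
Armcx6: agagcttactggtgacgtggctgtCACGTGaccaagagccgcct
Armcx4: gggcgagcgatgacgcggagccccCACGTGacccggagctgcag

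Outside the E-box, Armcx1 and Armcx6 were identical at 25 of 38 aligned bases, and Armcx4 matched each of them at 15 of 38. The motif began 3 bases before the annotated start in Armcx1 and Armcx4 and 26 bases before it in Armcx6. CACGTG was in 7.15% of all 32851 windows (8.09% of genes in at least 1 window), and 0.974% of windows held the longer form TCACGTGA, which Armcx1 and Armcx6 carry. Among the BEX and TCEAL genes, 9 of 12 with a window held CACGTG in at least 1 window and 7 held TCACGTGA. None of the 4 GASP relatives with a window held either form. The motif was picked after the sequences had been read, and a match describes letters and not binding. Armcx1, Armcx4 and Armcx6 did not share 1 pattern of expression, as their values show.

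On each day Armcx1 was lower in knockout cultures than in wild type ones, which is the pattern for which the family was picked. At day 4 its log2 values were 5.94, 5.64 and 5.65 in knockout, 6.09, 6.33 and 5.88 in mosaic and 6.45, 6.30 and 6.29 in wild type cultures. At day 0 they were 5.90, 6.26 and 5.87 in knockout, 6.16, 6.53 and 6.23 in mosaic and 6.49, 6.69 and 6.66 in wild type cultures. Every knockout array lay below every wild type array of its day, while mosaic arrays overlapped both genotypes on day 4 and on day 0.

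**Figure D1:**
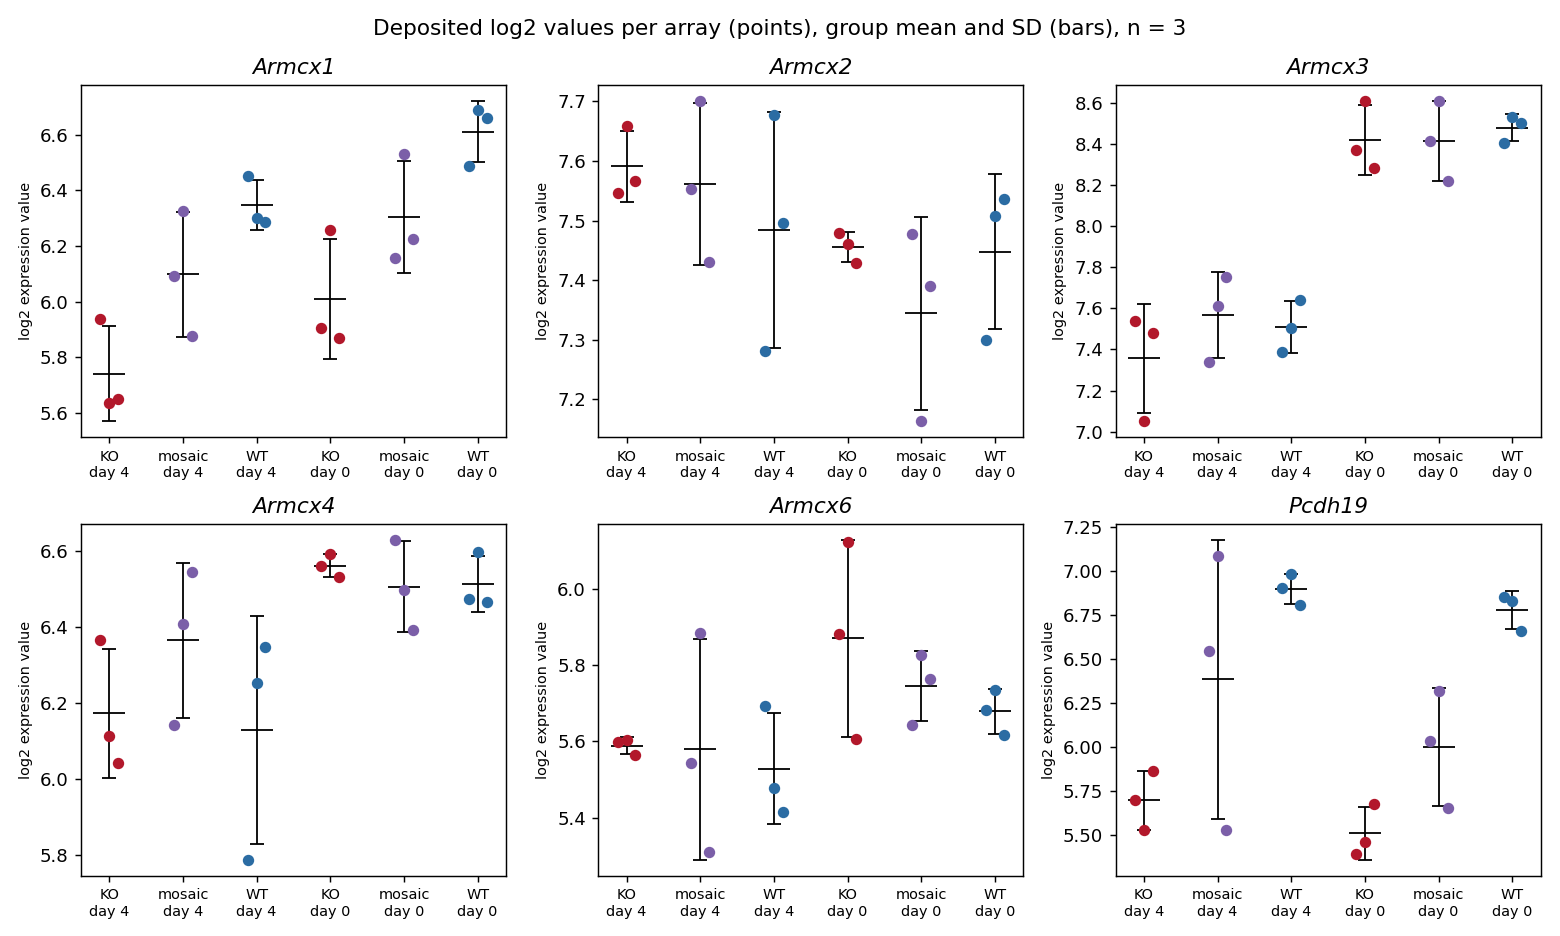
Deposited log2 expression values of the 5 measured ARMCX genes and of Pcdh19 (y axis, a separate scale for each gene) in the 6 groups (x axis). Points are arrays and bars are the group mean and SD (n = 3). Armcx1 runs from 5.64 to 6.69 with the knockout lowest on each day, and Armcx3 from 7.05 to 8.61 with all day 4 arrays below all day 0 arrays.

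The difference of knockout minus wild type for Armcx1 was -0.61 ± 0.14 (log2, SE from the fit, n = 3 per group) at day 4 and -0.60 ± 0.14 at day 0, or linear ratios of 0.657 and 0.659. No p-value is given, since this contrast chose the gene. Arrays of knockout and wild type did not overlap on both days, with the knockout lower, in 0.284% of the 19016 tested genes, and with the knockout higher in 0.273%. In limma, with Benjamini-Hochberg adjustment over all tested genes, 0% of all genes passed at either day. An unadjusted p under 0.05 was found for 2411 genes at day 4 and 686 at day 0. When genes were ordered by the smaller of their falls on the 2 days, Armcx1 had rank 3, behind Pcdh19 and Adcy2, an adenylyl cyclase. Adcy2 differed by -0.63 at day 4 and -1.03 at day 0. The next gene after Armcx1 in that order was Olfr1076, at -0.57 and -0.71. Armcx1 was picked for lower values in the knockout on both days, so its rank is only a description.

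The arrays of the other 4 members overlapped between knockout and wild type on both days. Among all genes the arrays of these genotypes did not overlap, with the knockout higher, in 8.56% at day 4 and 4.76% at day 0, and with the knockout lower in 8.27% and 4.44%. Armcx2 had means of 7.59 ± 0.06 (SD, n = 3 here and below) in knockout, 7.56 ± 0.14 in mosaic and 7.48 ± 0.20 in wild type cultures at day 4. At day 0 its means were 7.46 ± 0.03 in knockout, 7.34 ± 0.16 in mosaic and 7.45 ± 0.13 in wild type cultures. Armcx3, Armcx4 and Armcx6 likewise had overlapping arrays in every comparison between genotypes. Over these 4 genes the log2 difference of knockout minus wild type ran between -0.15 (Armcx3) and 0.11 (Armcx2) at day 4 and between -0.06 (Armcx3) and 0.19 (Armcx6) at day 0. The median over the 5 members was 0.04 at day 4 and 0.0082 at day 0, beside 0.0079 and 0.0010 over all genes.

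By group mean, Armcx1 descended in the order wild type day 0 (6.61 ± 0.11), wild type day 4 (6.35 ± 0.09), mosaic day 0 (6.30 ± 0.20), mosaic day 4 (6.10 ± 0.22), knockout day 0 (6.01 ± 0.22) and knockout day 4 (5.74 ± 0.17). The arrays of neighbouring groups in this order overlapped except between wild type day 0 and wild type day 4. The mosaic mean lay between the other genotypes on each day. Its difference was 0.36 from knockout and -0.25 from wild type at day 4, and 0.29 from knockout and -0.31 from wild type at day 0, each with an SE of 0.14. These comparisons share arrays with the one that chose Armcx1, so they too are a description. Without mosaic day 4 replicate 3 the day 4 differences were 0.47 from knockout and -0.14 from wild type, and without replicate 2 they were 0.24 and -0.36. At day 0 the difference from knockout was 0.18 without mosaic day 0 replicate 2. For the other 4 members, mosaic minus knockout ran from -0.03 to 0.21 at day 4 and from -0.13 to -0.01 at day 0. Mosaic minus wild type ran from 0.05 to 0.24 at day 4 and from -0.10 to 0.07 at day 0. All 4 had overlapping arrays in each. Of all genes, mosaic arrays were entirely higher than knockout arrays in 4.24% and entirely lower in 4.44% at day 4, and in 5.14% and 4.88% at day 0. Against wild type arrays they were entirely higher in 9.62% and entirely lower in 8.55% at day 4, and in 5.66% and 5.63% at day 0. In limma 0 of these 4 passed in any of the 4 mosaic comparisons and 0 had an unadjusted p under 0.05. Over all genes 0% passed in each, and the number with an unadjusted p under 0.05 was 1155 against knockout and 3026 against wild type at day 4, and 806 and 817 at day 0.

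Pcdh19, the targeted gene, was itself lower in the knockout. At day 4 its log2 values were 5.70, 5.53 and 5.86 in knockout, 6.54, 7.09 and 5.52 in mosaic and 6.90, 6.98 and 6.81 in wild type cultures. At day 0 they were 5.39, 5.46 and 5.68 in knockout, 6.03, 6.31 and 5.65 in mosaic and 6.85, 6.83 and 6.66 in wild type cultures. The difference of knockout minus wild type was -1.20 ± 0.26 at day 4 and -1.27 ± 0.26 at day 0 (log2, SE, n = 3 per group). The mosaic arrays were the most spread, with replicate 3 of day 4 at the level of the knockout and replicate 2 above the wild type. Armcx1 followed the same order on those arrays, since mosaic day 4 replicate 2 was the highest of its group for both genes, replicate 1 came next and replicate 3 was lowest. At day 0 replicate 2 was again highest for both genes, while replicate 1 was lowest for Armcx1 and replicate 3 for Pcdh19.

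**Figure D2:**
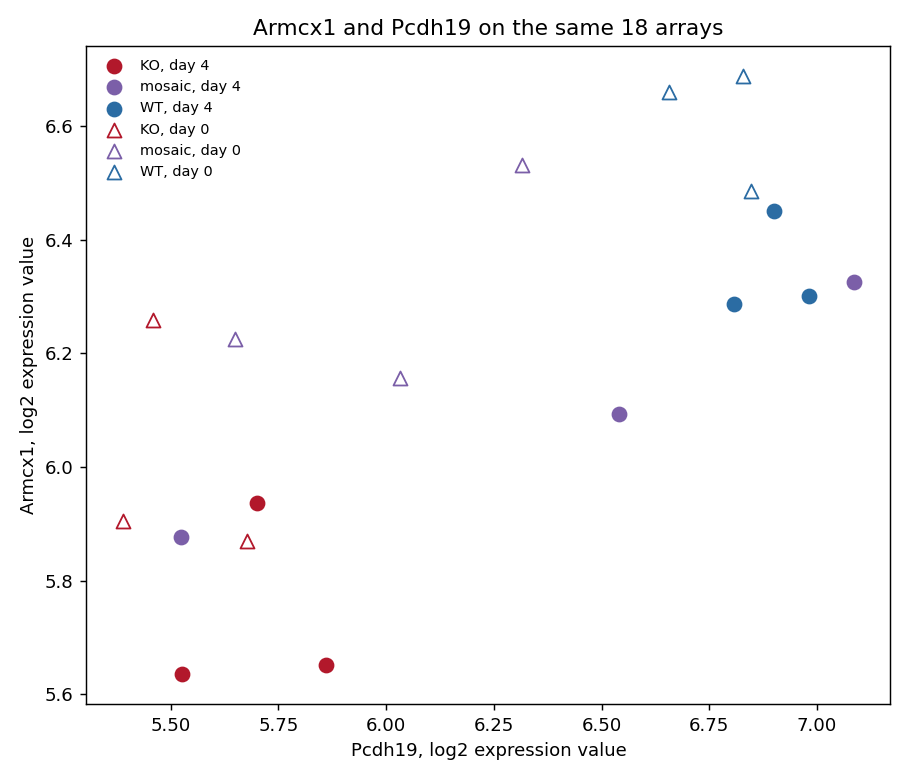
Log2 expression value of Armcx1 (y axis) against that of Pcdh19 (x axis) on each of the 18 arrays, filled circles for day 4 and open triangles for day 0. Knockout arrays lie at the lower left, with Pcdh19 at or below 5.86, wild type arrays at the upper right, and mosaic arrays spread between 5.52 and 7.09 on the Pcdh19 axis.

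Across all tested genes, the expression most like that of Armcx1 over the 18 arrays was that of M6pr, a receptor that carries enzymes to lysosomes (Pearson r = 0.74), followed by Dlat, a subunit of the mitochondrial pyruvate dehydrogenase complex (r = 0.74), Pcdh19 (r = 0.71), Ier5l (r = 0.71) and the noncoding RNA gene Lncpint (r = 0.71). After the mean of each day had been subtracted from its 9 arrays, Pcdh19 ranked first of all other tested genes, with r = 0.88. Il18rap (0.77), Galnt12 (0.76), Twf1 (0.75) and Minar1 (0.74) came next, with the same kinds of gene left out. These correlations are descriptions over arrays that share the 6 groups, and the knockout and wild type arrays among them are those on which Armcx1 was picked. Over the 6 mosaic arrays alone, each day centred, r between Pcdh19 and Armcx1 was 0.86, which ranked 737th among 19015 genes. On the same arrays r with Pcdh19 was 0.87 for Armcx6, 0.39 for Armcx2, -0.07 for Armcx3 and -0.29 for Armcx4.

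Members did not move as 1 block from array to array. With each day centred, r over the 18 arrays was 0.58 between Armcx3 and Armcx4, the highest of the 10 pairs, and 0.43 between Armcx1 and Armcx3. It was 0.08 between Armcx1 and Armcx6, which had the highest identity of the 3 stretches printed, and -0.09 between Armcx1 and Armcx4.

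In the annotation, 18 protein-coding genes lie between Pcdh19 and Armcx4, the nearest member, and Armcx1 follows directly after Armcx4. Then come Armcx6, Armcx3 and Armcx2, while Armcx5 lies farther on. Between Pcdh19 and Armcx5, 19 other genes passed the filter. In none of these 19 were the knockout arrays below the wild type arrays on both days. On 1 day the knockout arrays lay below in 2 of them at day 4 (Nox1, an NADPH oxidase, at -0.43 ± 0.16, and Nxf7, of the mRNA export factor family, at -0.34 ± 0.15) and in 1 at day 0 (Timm8a1, a chaperone of the mitochondrial intermembrane space, at -0.35 ± 0.15). Over all tested genes this held for 8.27% at day 4 and 4.44% at day 0. Timm8a1 was also at -0.32 ± 0.15 at day 4, with overlapping arrays. Differences of the 19 ran from -0.43 to 0.18 at day 4 and from -0.35 to 0.22 at day 0, as the plot in gene order shows. Armcx1 lay below all of them on both days. It was picked for low values in this same contrast and the 19 were not, so its place among them is only a description. In limma 0 of the 19 passed in this contrast.

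**Figure D3:**
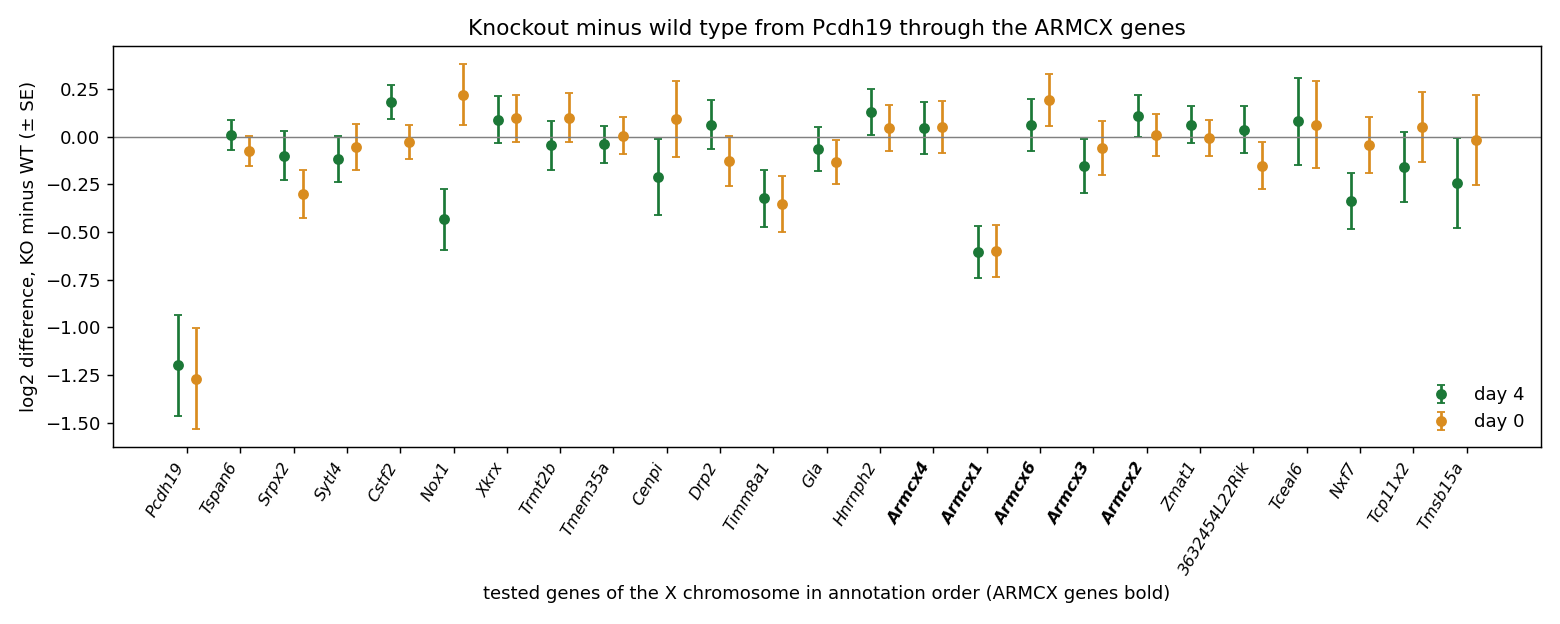
Log2 difference of knockout minus wild type (y axis, ± SE, n = 3 per group) for Pcdh19 and the tested genes up to Tmsb15a, in annotation order along the X chromosome (x axis, not to distance), at day 4 and day 0. Pcdh19 lies at -1.20 and -1.27 and Armcx1 at -0.61 and -0.60, with the other genes between -0.43 and 0.22.

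Over differentiation, the comparison of day 4 with day 0, Armcx3 fell in all genotypes and the other members moved less. Armcx3 had log2 values of 7.54, 7.05 and 7.48 at day 4 and 8.37, 8.61 and 8.28 at day 0 in knockout cultures. In mosaic cultures it had 7.34, 7.61 and 7.75 at day 4 and 8.41, 8.61 and 8.22 at day 0. In wild type cultures it had 7.39, 7.50 and 7.64 at day 4 and 8.41, 8.53 and 8.50 at day 0. All 9 day 4 arrays lay below all 9 day 0 arrays.

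The log2 difference of day 4 minus day 0 for Armcx3 was -1.06 ± 0.14 (SE, n = 3 per group) in knockout, -0.85 ± 0.14 in mosaic and -0.97 ± 0.14 in wild type cultures, or linear ratios of 0.479, 0.556 and 0.511. Its adjusted p in limma was 2.53e-05, 0.00023 and 6.42e-05. With every alternative tried, from quantile normalization to leaving out any 1 array, it passed in each genotype. In these bulk samples fewer cells that express a gene and less RNA per cell cannot be told apart.

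Armcx4, the neighbour of Armcx1, fell in knockout and wild type cultures by smaller amounts. Its values were 6.37, 6.11 and 6.04 at day 4 and 6.56, 6.59 and 6.53 at day 0 in knockout, and 5.79, 6.25 and 6.35 at day 4 and 6.48, 6.60 and 6.47 at day 0 in wild type cultures. Mosaic arrays had 6.14, 6.41 and 6.54 at day 4 and 6.63, 6.50 and 6.39 at day 0, so that the days overlapped in the mosaic and not in the other genotypes. The log2 difference was -0.39 ± 0.14 in knockout (adjusted p in limma = 0.0422), -0.14 ± 0.14 in mosaic (0.515) and -0.38 ± 0.14 in wild type (0.0384). The knockout call ended in 4 of 7 other settings and without 9 of the 18 arrays left out in turn, with the adjusted p in limma between 0.0141 and 0.15 over the arrays left out. The wild type call ended in 2 of 7 settings and without 4 of 18 arrays, and without wild type day 4 replicate 1, the lowest array, the difference was -0.21 (adjusted p = 0.22).

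**Figure D4:**
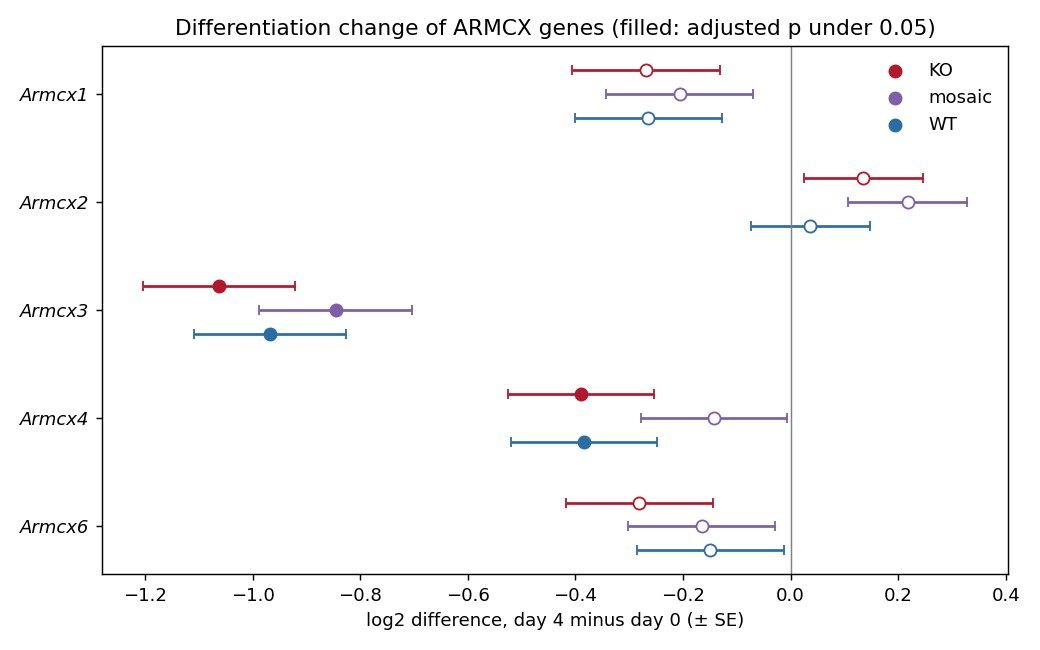
Log2 difference of day 4 minus day 0 (x axis, ± SE, n = 3 per group) for the 5 measured ARMCX genes (y axis) in knockout, mosaic and wild type cultures, filled where the adjusted p in limma was under 0.05. Armcx3 lies between -1.06 and -0.85 in all 3, Armcx4 is filled in knockout and wild type, and Armcx2 lies above 0 in each without passing.

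Armcx1 had differences of -0.27 ± 0.14 in knockout, -0.21 ± 0.14 in mosaic and -0.26 ± 0.14 in wild type cultures and did not pass (adjusted p in limma = 0.171, 0.315 and 0.148), although the wild type arrays of the days did not overlap. Armcx6 had -0.28 ± 0.14, -0.17 ± 0.14 and -0.15 ± 0.14 in the same order (adjusted p = 0.149, 0.435 and 0.416). The knockout arrays of Armcx6 were 5.60, 5.60 and 5.56 at day 4 and 5.88, 6.12 and 5.61 at day 0, which did not overlap, and without knockout day 0 replicate 3 the difference was -0.41 and passed (adjusted p in limma = 0.0403). Without knockout day 0 replicate 2 it was -0.15 (adjusted p in limma = 0.504), and the call changed in 1 of 18 omissions. Armcx2 had the opposite sign, at 0.13 ± 0.11, 0.22 ± 0.11 and 0.04 ± 0.11 (adjusted p = 0.428, 0.174 and 0.819), and its knockout arrays at day 4 all lay above those at day 0.

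In all, 2 of 5 members were called lower in knockout, 1 in mosaic and 2 in wild type cultures, and 0 were called higher. Among all tested genes 27.4% were called in knockout, 26.2% in mosaic and 33.6% in wild type cultures. Of the tested genes 12.4% were called lower in knockout, 11.9% in mosaic and 16.3% in wild type, and 15%, 14.4% and 17.2% were called higher. Genes called lower in all 3 genotypes made up 8.93% of the tested genes, and Armcx3 was the 1 member among them. The median difference over the members was -0.28 in knockout, -0.17 in mosaic and -0.26 in wild type, beside 0.02, 0.02 and 0.09 over all genes. The arrays of the days did not overlap, with day 4 lower, for 3 members in knockout, 1 in mosaic and 3 in wild type, against 17.1%, 17.8% and 21.9% of all genes. With day 4 higher they did not overlap for 1 member in knockout and 0 in mosaic and wild type, against 22.1%, 20.3% and 27.1% of all genes.

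The size of the change over differentiation was not shown to depend on genotype. For Armcx3 the difference of differences was -0.09 ± 0.20 between knockout and wild type and 0.12 ± 0.20 between mosaic and wild type (adjusted p in limma = 0.914 and 0.826). For Armcx4 it was -0.0046 ± 0.19 and 0.24 ± 0.19 (adjusted p in limma = 0.996 and 0.614). In limma 0% of all genes passed in either contrast. Leaving out Armcx1, which was picked on parts of these contrasts, 0 members had an unadjusted p under 0.05, against 1809 and 2354 of all genes.

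The cultures changed in cell type markers over the same days. All 11 measured oligodendrocyte markers rose in each genotype, and 9 of 14 neuron markers rose in each, with 0 lower in knockout and 1 lower in mosaic and in wild type. The median log2 level of the 14 neuron markers was 7.49 to 8.44 over knockout day 4 arrays and 6.61 to 6.75 over knockout day 0 arrays, and 7.52 to 7.79 against 6.65 to 6.75 in wild type. Of 12 neural stem cell markers 6 fell in each genotype, while 3 rose in knockout and 2 each in mosaic and in wild type. Prom1 rose by 0.57, 0.73 and 0.48 and Slc1a3 by 0.39, 0.34 and 0.45 in knockout, mosaic and wild type. The median level of the 12 was 8.96 to 9.04 at day 4 against 9.92 to 10.01 at day 0 in knockout cultures. Of 10 astrocyte markers 6 rose and 3 fell in each genotype. Median levels of markers of microglia, of endothelial and mural cells and of fibroblasts lay between 4.47 and 5.53 in all groups. Of these lists, Pdgfrb, a marker of mural cells, rose by 2.29, 2.11 and 2.06 and Pdgfra, which oligodendrocyte precursors also express, by 0.999, 1.04 and 0.79 in knockout, mosaic and wild type, and Col1a2 rose by 0.54 in wild type. Csf1r rose by 0.48 in wild type, and P2ry12 fell by 0.39 in knockout. The median of the fibroblast list in wild type was 5.32 to 5.53 at day 4 and 4.84 to 5.06 at day 0, without overlap. What part these shifts have in the fall of Armcx3 and Armcx4 was not tested.

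In a list of mitochondrial transport genes, the kinesins Kif5c and Kif5a and the adaptor Trak2 rose in each genotype, and the adaptor Trak1 fell in each. The motors Kif5b, Kif1b and Myo19 did not pass in any genotype, and the dynein Dync1h1 passed in knockout (0.27 ± 0.08, adjusted p in limma = 0.0234), against 0.22 in mosaic and -0.01 in wild type. Of 17 tested genes of this list, 6 rose and 3 fell in knockout, 6 rose and 2 fell in mosaic and 6 rose and 4 fell in wild type cultures, with a median of 0.15, 0.09 and 0.00. Kif5c and Kif5a, kinesin heavy chains of neurons, rose by 1.71 ± 0.16 and 0.84 ± 0.16 in knockout, by 1.62 and 1.22 in mosaic and by 1.26 and 0.94 in wild type. Trak1, an adaptor between Miro and the motors, changed by -0.49 ± 0.07, -0.49 ± 0.07 and -0.62 ± 0.07, and its relative Trak2, the partner of Armcx3, by 0.47 ± 0.10, 0.60 ± 0.10 and 0.30 ± 0.10. Rhot2, which encodes a Miro protein, fell by 0.27 in knockout and by 0.41 in wild type, and had -0.20 in mosaic without passing. These calls were made in limma over all genes, with adjusted p of 0.033 or less.

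Genes of mitochondrial fusion and fission had log2 differences between -0.43 (Yme1l1 in knockout) and 0.60 (Miga2 in mosaic). Of 17 tested, 6 rose and 2 fell in knockout, 6 rose and 2 fell in mosaic and 4 rose and 3 fell in wild type cultures. Mfn2, which fuses outer membranes, rose by 0.55 ± 0.10 in knockout, 0.57 ± 0.10 in mosaic and 0.47 ± 0.10 in wild type, and Miga2, a promoter of fusion, by 0.47, 0.60 and 0.55. Yme1l1, an inner membrane protease, changed by -0.43, -0.30 and -0.40 in the same order, and Gdap1, an outer membrane protein, by 0.54 ± 0.16 in knockout and 0.59 ± 0.16 in mosaic, with 0.21 ± 0.16 in wild type, where it did not pass. On the fission side Dnm1l changed by -0.35, -0.33 and -0.39 and Fis1 by 0.32, 0.31 and 0.32 in knockout, mosaic and wild type, and both passed in each. In knockout against wild type 0 genes of either list passed in limma on either day, as was true of all genes.

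The shares of all genes called over differentiation were 27.4% in knockout, 26.2% in mosaic and 33.6% in wild type. The counts of the mitochondrial lists above and of the relatives and neighbours stand beside these. Of the 3 tested GASP relatives, 0 passed in knockout or mosaic cultures and 2 fell in wild type, Gprasp2 by 0.50 ± 0.17 and Armc10 by 0.35 ± 0.11 (adjusted p in limma = 0.0297 and 0.0206). Bhlhb9, the remaining one, had 0.18, 0.28 and -0.06 in knockout, mosaic and wild type and did not pass. Of 10 tested BEX and TCEAL genes 1 rose and 1 fell in knockout, 2 rose and 1 fell in mosaic, and 0 rose and 1 fell in wild type. Tceal9 fell in each genotype, with -0.43 ± 0.09, -0.30 ± 0.09 and -0.61 ± 0.09, and Bex3 rose in knockout and mosaic by 0.31 and 0.27. Among the 19 genes between Pcdh19 and Armcx5, 1 rose and 4 fell in knockout, 1 rose and 4 fell in mosaic, and 2 rose and 7 fell in wild type.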

How the data were processed

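Each of the 18 mouse culture samples had its RNA on 1 Affymetrix gene array, with 6 groups of 3 taken from the sample titles. The deposited values are normalized expression values of 41345 probe sets on a log scale, taken as log2 from their range of 0.722 to 13.97. Per the labels' protocols RNA was extracted with Trizol and silica columns. How the authors normalized the deposited log2 values, and in which log base, was not given in the sources used here, and background levels were not used. The number of arrays limits the precision, with a median SE of 0.126 (log2) between groups.

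Probe sets with 1 symbol in the platform annotation (23521, against 1814 with several and 16010 with none listed) gave 22180 genes. Of these probe sets, 23328 matched a RefSeq table of GRCm38.p6 by Entrez identifier, which served for names and gene order only, and promoter windows came from a RefSeq table of the same build. Genes above the 25th percentile of the array on at least 3 arrays were tested (19016, with 3164 dropped). With all 18 arrays in 1 model, 6 group means were fitted in limma 3.58.1 in R 4.3.3 (lmFit and eBayes, 12 residual degrees of freedom), with two-sided p-values adjusted by Benjamini-Hochberg over all tested genes and a gene called at an adjusted p under 0.05. Tests on simulated data for knockout day 4 minus day 0 over 19016 genes found 41 of 67 genes set to a 1.5-fold change, 59 of 67 set to 2-fold and 66 of 66 set to 4-fold, and made 8 false calls. Far fewer genes were changed there than the 27.4% called in the data, and the noise was drawn independently for each gene. The counts therefore describe the simulation and not the rate of finds in the data.

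The members and the gene lists were chosen with earlier results of these data known. Named genes are all members, Pcdh19, the tested genes between Pcdh19 and Armcx5, and the 5 genes most like Armcx1 by Pearson's r, with the kinds stated left out. Of the mitochondrial lists and the BEX and TCEAL genes, the called genes with the greatest change over differentiation in knockout are named (at most 4). GASP relatives did not pass in knockout, and those called in wild type are named. Some genes with larger called changes in mosaic or wild type are therefore not named. Marker lists are given mainly as counts and median levels. Rhot2, Dync1h1, Dnm1l, Fis1, Bhlhb9, the motors not called, the markers named, Adcy2, Olfr1076 and the markers of sex were named after their values were seen. Alternatives were quantile normalization, no filter or one at the 50th percentile, arrays shifted to a common median, probe sets of a gene averaged, a block for the replicate number, a fit of only the groups compared, and the omission of each of the 18 arrays in turn.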

Additional observations from a re-analysis of the deposited data

How the results depend on the processing

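The fall of Armcx3 over differentiation was called in every genotype under all 7 other settings and all 18 arrays left out in turn. Averaging probe sets and changing the filter left the values of Armcx3 as they were and could act only through the other genes. The count of ARMCX genes called was 2 in knockout cultures, and 1 under quantile normalization, no filter, a common array median and the replicate block. In wild type cultures it was 2, and 1 under quantile normalization and with only the groups compared. It ran from 1 to 2 in both as arrays were left out, through the loss of Armcx4 in each case, and the cause was not tested. Without knockout day 0 replicate 3 Armcx4 was lost as well, but Armcx6 passed, so the knockout count stayed at 2. Deviations from the group means had r from -0.15 to 0.17 over 45 same-numbered pairs of arrays (median 0.03), and 4 were over 0.1. Over 90 pairs with different numbers r ran from -0.15 to 0.12 (median -0.01), and 4 were over 0.1. These values do not settle whether replicate numbers pair the samples, and the main fit had no block for them.

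Differences near 0, none of them called, changed sign. With arrays left out, knockout minus wild type ran from -0.066 to 0.053 for Armcx2 and -0.15 to 0.0090 for Armcx3 at day 0, and from -0.13 to 0.15 for Armcx4 at day 4. Under quantile normalization mosaic minus wild type was 0.00076 for Armcx4 at day 0, -0.0043 for Armcx2 and -0.028 for Armcx3 at day 4, mosaic minus knockout was 0.0030 for Armcx3 at day 0, and the knockout minus wild type difference of differences was -0.00031 for Armcx2. With a common array median, mosaic minus knockout was 0.0065 for Armcx6 at day 4, and the difference of differences was 0.056 for Armcx4 and 0.056 for Armcx1 (knockout minus wild type) and 0.064 for Armcx6 (mosaic minus wild type). With arrays left out, mosaic minus knockout ran from -0.10 to 0.036 for Armcx2 and from -0.16 to 0.12 for Armcx6 at day 4, and from -0.10 to 0.091 for Armcx3, -0.12 to 0.0020 for Armcx4 and -0.26 to 0.00063 for Armcx6 at day 0. Mosaic minus wild type ran from -0.025 to 0.17 for Armcx2, -0.036 to 0.17 for Armcx3 and -0.10 to 0.18 for Armcx6 at day 4, and from -0.16 to 0.031 for Armcx3 and -0.068 to 0.050 for Armcx4 at day 0. Day 4 minus day 0 in wild type ran from -0.060 to 0.14 for Armcx2. The difference of differences ran from -0.10 to 0.12 for Armcx1, -0.0034 to 0.20 for Armcx2, -0.19 to 0.058 for Armcx3 and -0.18 to 0.11 for Armcx4 (knockout minus wild type), and from -0.055 to 0.17 for Armcx1 and -0.17 to 0.12 for Armcx6 (mosaic minus wild type). The number of arrays, 3 per group, limits the precision, and signal over background was not at hand.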
